A study of Mus musculus with 27 samples.

Results

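The genes described here encode 7 of the enzymes that build haem, namely Alas2, Alad, Uros, Urod, Cpox, Ppox and Fech. They were taken by symbol from the gene column of 5 RNA-Seq tables made from mouse erythroleukaemia (MEL) cells, an erythroid progenitor line that can be induced to differentiate, and are 7 of the 14558 genes listed in all 5 tables. Other steps of the pathway were not analysed here. The series holds 27 samples, 21 of them RNA libraries, and the remaining 6 are chromatin immunoprecipitation (ChIP) or IgG control samples. In 4 of the tables a regulator was knocked down (KD) and compared with the libraries labelled WT, which carried a non-targeting hairpin or siRNA in the same MEL line. These were Cbfa2t3, which encodes the co-repressor ETO2 (2 WT libraries, 2 with hairpin sh2 and 2 with hairpin sh3), Irf2bp2, whose product binds ETO2 (2 WT, 2 with hairpin sh1), Gfi1b, a zinc-finger repressor (2 WT, 2 KD, by siRNA), and Kdm1a, which encodes the histone demethylase LSD1 (1 WT, 2 KD). The 5th table compared 2 non-induced with 2 induced MEL libraries. By the study's account, induced cells were taken at a later time after treatment than the hairpin KD cells. All libraries come from 1 cell line, hairpins and siRNAs were delivered to whole cultures, and the study's methods describe the replicates as biological and independent of each other.

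Haem synthesis begins and ends in the mitochondrion. Alas2, the erythroid form of aminolevulinate synthase, makes the first committed precursor from glycine and succinyl-CoA and sets the pace of the pathway in red cells. In the cytosol Alad joins pairs of this precursor into the pyrrole porphobilinogen, Uros closes the ring of pyrroles and Urod removes its acetate carboxyl groups, whereas Cpox and Ppox carry out the oxidations in and at the mitochondrion and Fech (ferrochelatase) inserts the iron. Maturing erythroid cells raise the whole route to supply haemoglobin.

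The total count on genes per library ran from 9929311 to 19623105 in the Gfi1b and MEL induction tables and from 44519414 to 57684583 in the other 3. Values are given as CPM, counts scaled to a common library total, after trimmed-mean (TMM) scaling within each table. The raw counts of the 7 genes ran from 78 for Uros to 72380 for Cpox, so none was near the limit that 3 counts set, which was at most 0.302 CPM in a library. Markers checked the labelled cell type: the erythroid factors Gata1, Klf1 and Tal1 were tested in every table, while the granulocyte markers Mpo and Elane had at most 8 counts in any library that listed them and the T-cell marker Cd3e at most 4. Of 3 macrophage markers Cd68 was tested, at 0.735 to 3.54 CPM, and it was called in no replicated comparison but stood at 1.43 CPM in the Kdm1a control and at 2.80 and 3.0 CPM in the Kdm1a KD libraries. Of 4 megakaryocyte markers Pf4 and Itga2b stood at 57.9 to 588 CPM and 69.2 to 968 CPM, while Gp9 and Gp1bb were low, at 0.302 to 4.70 CPM and 0.206 to 1.19 CPM.

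The targeted genes were read first. Cbfa2t3 stood at 400.3 and 427 CPM in its controls, at 202 and 244 CPM with sh2 and at 123 and 145 CPM with sh3. Kdm1a went from 152 CPM to 16.9 and 16.3 CPM. Irf2bp2 stood at 116 and 119.7 CPM in its controls and at 92.2 and 94.9 CPM in its KD libraries (log2 fold change −0.33, edgeR adjusted p = 0.00266), which is short of the fold limit used below. Gfi1b itself went against its label in 1 library: it stood at 122 and 145 CPM in the controls, at 76.5 CPM in the library labelled Gfi1b KD replicate 2, but at 216 CPM in the library labelled Gfi1b KD replicate 1. Over 14176 genes the latter library correlated with the first induced MEL library at r = 0.97, with the other Gfi1b KD library at 0.93 and with its controls at 0.95 and 0.95, whereas the 2 induced libraries correlated with each other at 0.96. It is called by its label throughout, and results that rest on it are also given without it.

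Binding in MEL cells had been mapped by ChIP, IRF2BP2 with 1 library of this series and ETO2 in an earlier experiment that is not among these samples. The deposited list sorts 13229 sites into ETO2-only, IRF2BP2-only and shared classes. All 7 enzyme genes had at least 1 site assigned to them by the nearest 5′ end within 1 Mb, against 29.2% of 22238 protein-coding genes, and 4 of the 7 (Alas2, Alad, Cpox and Ppox) had a shared site, against 9.2% of genes. Counting every site in a gene, within 20 kb of it or assigned to it, there were 15 sites, of which 7 were shared, 7 IRF2BP2-only and 1 ETO2-only. Alas2 (mm9 chrX:146981918-147005181, + strand) held 2 shared sites in introns, centred 2476 and 17474 bp from its 5′ end. Cpox (chr16:58670321-58680504, + strand) had no site in the gene but 2 shared sites outside it, 8165 bp upstream and 16171 bp along from its 5′ end, past its 3′ end. The upstream Cpox site had the highest enrichment of the 15, 26.3-fold over IgG, and the Alas2 sites 16.9-fold and 13.2-fold. The list does not name the factor to which a fold belongs.

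The other genes differed in the class of site they carried. Ppox (chr1:173206121-173211317, − strand) had 1 shared site 154 bp from its 5′ end, in untranslated sequence of the gene model. Uros (chr7:140877926-140901755, − strand) had 1 in an intron 11899 bp from its 5′ end, which the nearest-gene rule gave to the neighbouring Bccip. Uros also had IRF2BP2-only sites 7506 bp into the gene and 20982 bp upstream of it, the latter the only one assigned to it. Alad (chr4:62170203-62180952, − strand) held 1 shared intronic site at 3164 bp between IRF2BP2-only sites at 343 and 4262 bp, and a further IRF2BP2-only site 5297 bp upstream was nearest to Pole3. The shared site of Alad was enriched 4.24-fold, the lowest of the 7 shared sites, against a median of 10.25-fold over all shared sites. Its IRF2BP2-only neighbours in the gene were enriched 2.31-fold and 4.41-fold, and the latter overlapped it. Urod (chr4:116662570-116667018, − strand) had only IRF2BP2-only sites, 1 of them 76 bp upstream of its 5′ end and enriched 10.6-fold. Fech (chr18:64616204-64648720, − strand) had a single ETO2-only site in an intron, 3258 bp from its 5′ end and enriched 13-fold. By assignment to the nearest 5′ end, 5 of the 7 genes had a site of a class that includes ETO2, against 13.8% of genes. Uros had such a site only by position within the gene, and Urod had none by either rule.

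**Figure D1:**
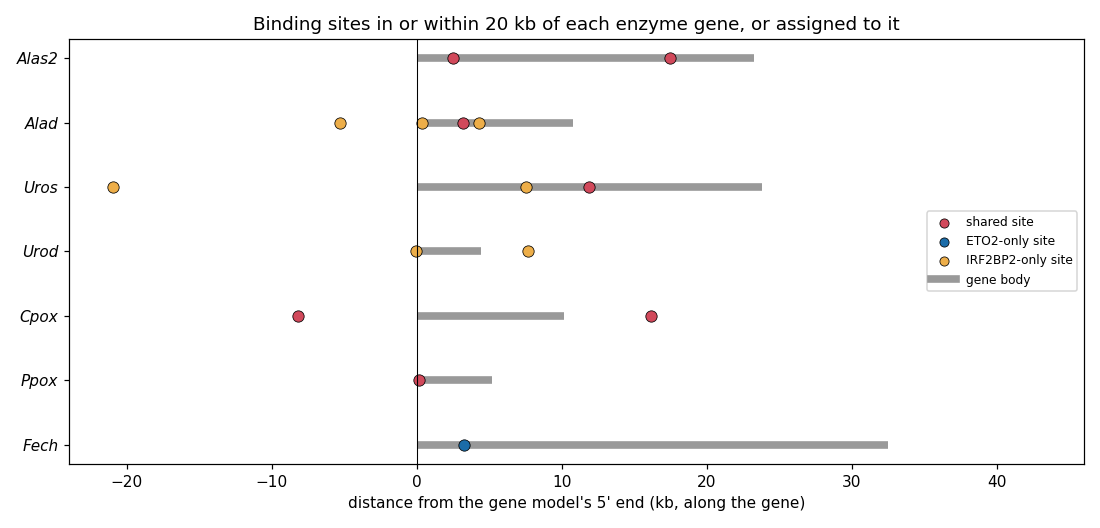
Binding sites around each enzyme gene, plotted by the distance in kb of the site's centre from the 5′ end of the gene model along the gene. Grey bars are gene bodies and circles are sites coloured by class; shared sites lie in or beside Alas2, Alad, Uros, Cpox and Ppox, Urod has IRF2BP2-only sites and Fech 1 ETO2-only site.

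Because ETO2 is known to sit on DNA in a complex with GATA1 and TAL1, the 201 bp around each site's centre were searched on both strands for the GATA words AGATAA (with its variant AGATAG) or TGATAA (with its variant TGATAG), and for CTG followed after 6 to 8 bases of any kind by one of these words. The second motif contains the first. A GATA word was found in 12 of the 15 sites, including all 7 shared ones, against 90.4% of all 2730 shared sites, 88.7% of ETO2-only and 44.5% of IRF2BP2-only sites. The spaced motif was found in 4 of the 15, both sites of Alas2, the shared site of Uros and the upstream site of Cpox. All 4 were among the 7 shared sites, and over the whole list 32.7% of shared and 6.29% of IRF2BP2-only sites held this motif. The sequences below are those of the shared sites that bear on the genes whose RNA is followed next, read from mm9 with the motif nearest the centre in capitals.
Alas2, chrX:146984377-146984433, − strand: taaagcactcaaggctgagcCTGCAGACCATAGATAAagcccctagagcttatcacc
Alas2, chrX:146999374-146999430, − strand: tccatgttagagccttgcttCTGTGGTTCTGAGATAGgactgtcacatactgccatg
Alad, chr4:62177786-62177831, − strand: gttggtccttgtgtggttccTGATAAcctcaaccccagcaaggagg
Uros, chr7:140889879-140889933, − strand: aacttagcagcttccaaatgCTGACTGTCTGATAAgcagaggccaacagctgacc
Cpox, chr16:58662148-58662204, + strand: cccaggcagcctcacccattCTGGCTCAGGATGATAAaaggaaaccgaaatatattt
Cpox, chr16:58686511-58686556, − strand: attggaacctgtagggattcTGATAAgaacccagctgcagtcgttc
Ppox, chr1:173211149-173211174, + strand: gtccgtgtgcAGATAAgggccacgcc
A match describes these letters and does not show that a factor was bound to them.

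The first question was how much of each enzyme's RNA the unperturbed cells held. By the authors' RPKM, which divides by transcript length and so allows genes to be compared, Cpox was the highest of the 7 in the 9 control and non-induced libraries at 192 ± 65.9 (SD) RPKM. It was followed by Urod at 56.4 ± 15, Fech at 35.1 ± 4.76, Alad at 32.9 ± 13.1, Alas2 at 24.8 ± 15 and Ppox at 22.6 ± 8.51 RPKM. Uros was the lowest at 5.79 ± 1.79 RPKM. The 2 ends of this order were firm, since Cpox exceeded Urod, Urod exceeded Fech and Ppox exceeded Uros in 9 of 9 libraries. The middle was not: Fech exceeded Alad in 6 of 9 libraries, Alad exceeded Alas2 in 7 and Alas2 exceeded Ppox in 5, and by the median of the 9 libraries Alas2 stood above both Fech and Alad. In the 2 induced libraries the order was different, with Alas2 at 591 ± 64.7 RPKM, Alad at 295 ± 72.2 and Fech at 161 ± 31.2, then Urod at 117 ± 8.42, Cpox at 99.9 ± 31.2, Ppox at 76.7 ± 13.2 and Uros at 13.6 ± 3.33 RPKM. In the 2 non-induced libraries of the same table Alas2 was at rank 6 of the 7 in both and Cpox at rank 1, whereas in the induced libraries Alas2 was at rank 1 in both and Cpox at ranks 4 and 5.

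**Figure D2:**
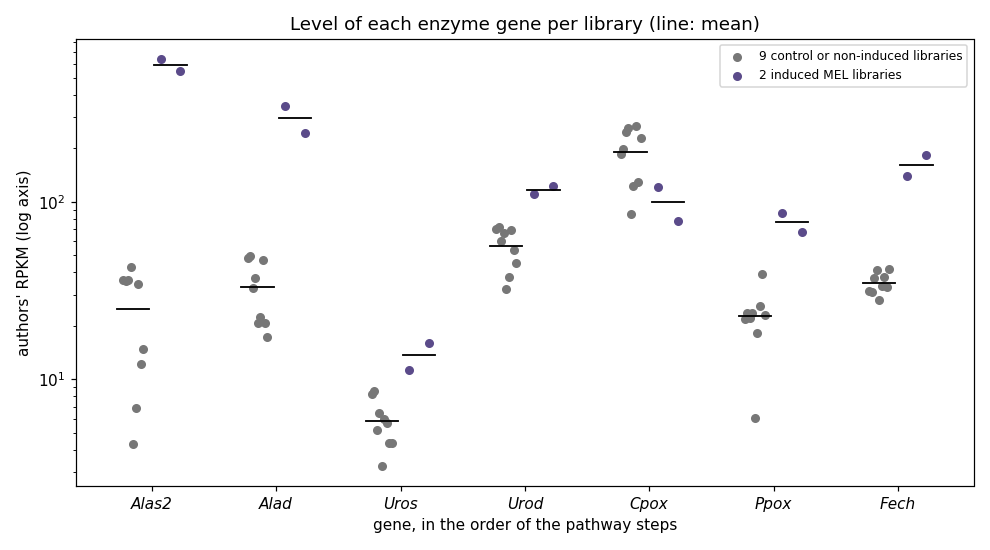
RPKM of each enzyme gene on a log axis, in the order of the pathway. Grey points are the 9 control or non-induced libraries, violet points the 2 induced libraries and black lines their means; Cpox is highest in the controls at 192 RPKM, whereas Alas2 is highest after induction at 591 RPKM.

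Control levels also varied between tables, which were scaled separately. Alas2 ranged from 8.36 to 82.1 CPM over the 9 control libraries, a 9.81-fold span, with the 2 Gfi1b controls at 8.36 and 13.1 CPM, the non-induced libraries at 23.1 and 29.2 CPM and the 5 controls of the hairpin tables at 66.2 to 82.1 CPM. Fech spanned only 1.52-fold, from 81.0 to 124 CPM. The span was 6.31-fold for Ppox, 3.15-fold for Cpox and between 2.24-fold and 2.79-fold for the other 3 genes. Each perturbed library was therefore compared only with the controls of its own table. A gene was called when the adjusted p of edgeR's quasi-likelihood test was 0.05 or less and the log2 fold change was 0.5 or more in size.

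Induction of differentiation raised 6 of the 7 enzymes, and Cpox was the exception. The background in this comparison was 12.4% of 11713 genes called higher and 14.8% called lower. Alas2 stood at 23.1 and 29.2 CPM before and at 1228 and 1094 CPM after induction, a 44.5-fold rise (log2 5.48 ± 0.29 SE, adjusted p = 1.11e-07). Alad, the next enzyme, went from 91.8 and 77.4 CPM to 1504 and 1104 CPM, 15.4-fold (log2 3.94 ± 0.28, adjusted p = 9.64e-07). In both genes the groups were far apart, and these 2 early steps had the largest changes of the 7. The last enzyme, Fech, went from 93.7 and 124 CPM to 400 and 548 CPM, 4.37-fold (log2 2.13 ± 0.27, adjusted p = 1.36e-04). The intermediate steps moved less: Uros rose 3.14-fold, Ppox 2.51-fold and Urod 2.42-fold, with adjusted p between 0.00214 and 0.00359. Ppox was the least even of them, at 69.2 and 42.8 CPM before and 155 and 127 CPM after induction, and without non-induced replicate 2 its change fell to a log2 of 1.03 and was no longer called (adjusted p = 0.0534). Cpox stood at 402 and 741 CPM in the non-induced and 385 and 256 CPM in the induced libraries. Both induced values lay below both non-induced ones, but by little against the gap between the 2 non-induced libraries, and the change of log2 −0.84 ± 0.30 was not called (adjusted p = 0.0549). Other settings placed this value on the other side of the threshold, with adjusted p of 0.0358 in DESeq2 and 0.00563 with no filter on low counts.

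KD of Irf2bp2 raised all 7 enzymes, against 10.1% of 12329 genes called higher and 12.5% called lower. Alas2 went from 69.0 and 82.1 CPM to 697 and 771 CPM, 9.72-fold (log2 3.28 ± 0.11, adjusted p = 1.61e-12). Alad went from 142 and 167 CPM to 585 and 615 CPM and Uros from 9.96 and 11.9 CPM to 40.3 and 42.8 CPM, 3.88-fold and 3.81-fold. The spread between replicates was small beside each of these differences. Fech rose 2.51-fold, from 107 and 117 CPM to 270.1 and 294 CPM, Ppox 2.31-fold, from 39.7 and 42.2 CPM to 97.1 and 92.1 CPM, and Urod 2.06-fold, from 71.2 and 78.7 CPM to 154 and 154 CPM. Cpox rose least, from 777 and 814 CPM to 1059 and 1198 CPM (log2 0.50 ± 0.10, adjusted p = 3.60e-04). Its groups did not overlap, yet its fold sat on the limit and was below it when WT replicate 1 (log2 0.47) or KD replicate 2 (log2 0.42) was left out.

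KD of Cbfa2t3 raised 6 of the 7 enzymes, against 2.99% of 12537 genes called higher and 2.75% called lower. Alas2 went from 69.7 and 68.6 CPM to 259 and 209 CPM with sh2 and to 377 and 338 CPM with sh3, 4.28-fold over the 4 KD libraries (log2 2.10 ± 0.22, adjusted p = 6.85e-04). Uros was next, from 15.4 and 13.7 CPM to 35.3 and 30.1 CPM with sh2 and 46.8 and 49.2 CPM with sh3, 2.78-fold (log2 1.47 ± 0.20, adjusted p = 0.00225). Every KD library lay above both controls in these genes, and the sh3 libraries lay above the sh2 libraries. Ppox rose 2.11-fold, Fech 2.01-fold, Cpox 1.82-fold and Alad 1.69-fold, with adjusted p from 1.44e-04 to 0.00662. Cpox went from 586 and 629 CPM to 938 and 933 CPM with sh2 and 1294 and 1253 CPM with sh3. Urod was the one enzyme not called, at 83.5 and 86.5 CPM without and 96.3 to 131 CPM with KD (log2 0.41 ± 0.12, adjusted p = 0.0556). Leaving out WT replicate 1 ended the calls of Alad and Cpox (adjusted p = 0.0625 and 0.106), and leaving out WT replicate 2 that of Cpox (adjusted p = 0.0656).

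The 2 hairpins gave changes of different size. Between sh3 and sh2, 2 of the 7 enzymes were called, against 3.71% of genes in either direction: Alas2 was higher with sh3 by a log2 of 0.61 ± 0.09 (adjusted p = 0.00145) and Uros by 0.55 ± 0.09 (adjusted p = 0.00258). Cpox was higher by 0.44 ± 0.06 (adjusted p = 8.87e-04), short of the fold limit, and the other 4 genes by 0.13 to 0.33. With sh3 alone against the controls all 7 enzymes were called, Urod included (log2 0.56, adjusted p = 1.60e-05), against 9.19% of genes in either direction. With sh2 alone 6 were called, against 7.11% of genes, and Urod stood at a log2 of 0.23. Cbfa2t3 RNA itself was lower with sh3 than with sh2, as given above, and the part of this in the difference between the hairpins was not tested.

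In Kdm1a KD Cpox stood well below the control, while the other 6 enzymes differed from it by less, in either direction. There was 1 control library, so each KD library is compared with it first and an edgeR test follows. A gene was counted if the 2 KD libraries both lay past a log2 of 0.5 on one side of the control, as 13.1% of 12628 genes did upwards and 9.8% downwards. By this rule 1 of the 7 genes, Cpox, was lower, with 856 CPM in the control against 351 and 329.8 CPM (log2 −1.29 and −1.38). Alas2 had 66.2 CPM in the control against 68.6 and 70.6 CPM, a mean log2 difference of 0.07, and Alad had 208 CPM against 162 and 156 CPM. Uros and Fech lay on the other side, Uros with 10.7 CPM against 14.9 and 16.0 CPM (log2 0.48 and 0.59) and Fech with 110.3 CPM against 158 and 150 CPM (log2 0.52 and 0.44). Each of them was past the limit in only 1 KD library. Urod and Ppox differed from the control by a mean log2 of 0.15 and −0.16. A test by edgeR, in which the single control is assumed to vary like the 2 KD libraries, called Cpox lower and Uros higher, 2 of the 7, against 22.5% of genes in either direction.

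No enzyme was called in the Gfi1b table, where 0% of 11190 genes were called higher and 0% lower by edgeR. Of the 7 genes 5 had an unadjusted edgeR p under 0.05, as did 784 of all 11190 genes. DESeq2 called 47 genes of the table but none of the 7. With no filter on low counts edgeR called 5 of them, and 2.41% of genes. The 2 KD libraries did not behave as replicates. The study's methods name 2 siRNAs against Gfi1b, and the labels do not say which was used for each library. Alas2 stood at 8.36 and 13.1 CPM in the controls, at 924 CPM in the library labelled Gfi1b KD replicate 1 and at 20.4 CPM in replicate 2. Alad stood at 94.0 and 101 CPM, then at 1097 and 123 CPM, and Fech at 81.0 and 96.7 CPM, then at 345 and 106 CPM. In each of these genes both KD libraries lay above the controls, replicate 1 by far more than replicate 2. Without the library labelled Gfi1b KD replicate 1, 2 enzymes were called higher, against 3.48% of genes in either direction: Urod, from 38.7 and 44.9 CPM to 66 CPM (log2 0.66, adjusted p = 0.0273), and Ppox, from 11 and 33.0 CPM to 40.4 CPM (log2 0.90, adjusted p = 0.00998). Alas2 then had a log2 of 0.94 (adjusted p = 0.0551). Without replicate 2, 6 enzymes were called higher and Cpox was not, against 26.7% of genes. A single KD library is assumed in both fits to vary like the controls. Cpox differed from the rest in that it stayed within its control range of 272 to 387 CPM in both KD libraries, at 301 and 345 CPM.

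**Figure D3:**
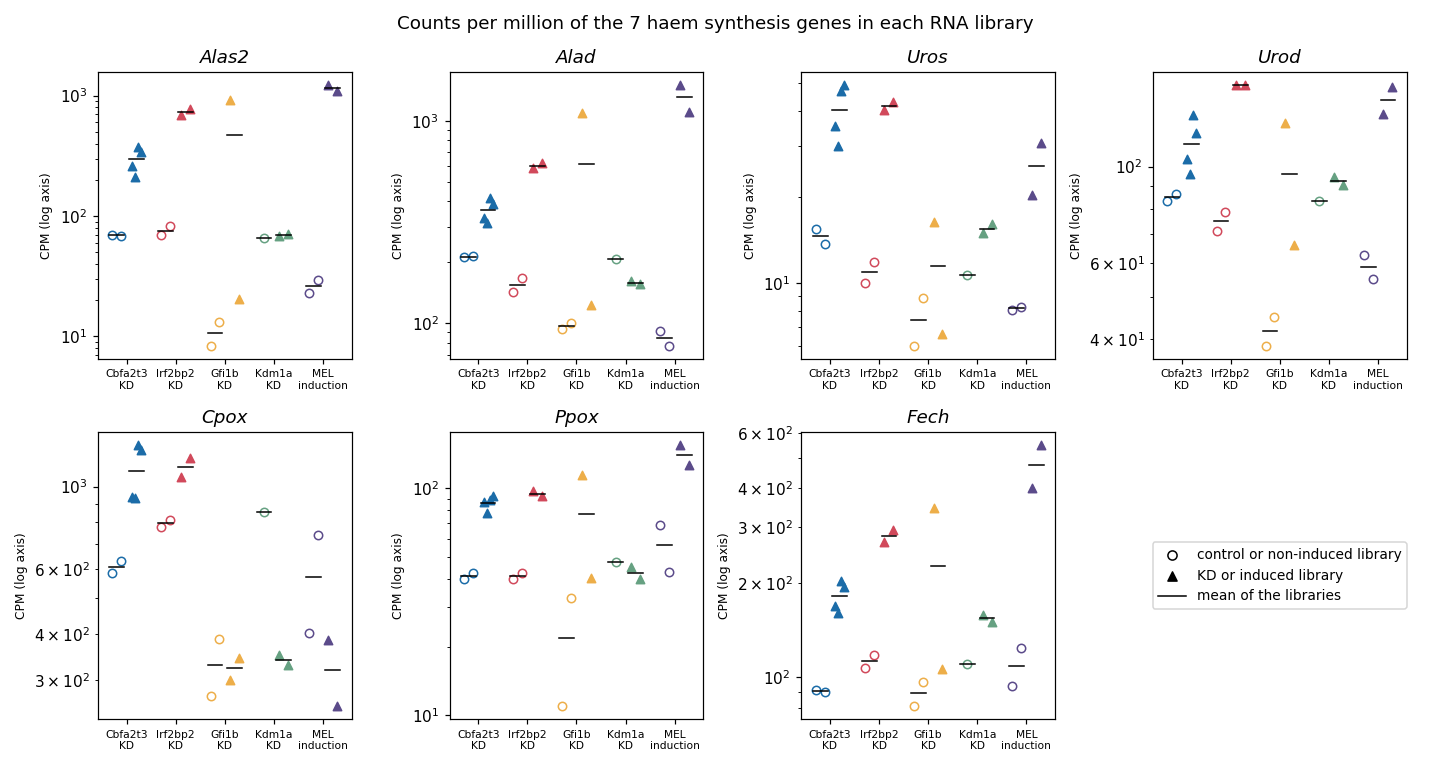
CPM of the 7 enzyme genes in each of the 21 RNA libraries, on log axes, by table. Open circles are control or non-induced libraries, filled triangles KD or induced libraries and black lines their means; 1 of the 2 Gfi1b KD triangles lies far above the other for Alas2, Alad and Fech, and the Kdm1a KD triangles lie below their control for Cpox.

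The size of the change in 1 comparison was then set against that in another, in a joint fit of all 21 RNA libraries over 14176 genes. The 2 Gfi1b KD libraries enter the spread of this fit, so each difference was also computed with the Gfi1b table left out, a choice made after the values were seen. Between Irf2bp2 KD and Cbfa2t3 KD no enzyme was called in the joint fit, where 1.18% of genes were. An unadjusted edgeR p under 0.05 was found for 1 of the 7, Urod, and for 1752 of all 14176 genes. DESeq2 called none of the 7. With the Gfi1b table left out, Alas2, Alad and Urod were called higher in Irf2bp2 KD, by a log2 of 1.19 (adjusted p = 0.0184), 1.21 (adjusted p = 0.00397) and 0.64 (adjusted p = 0.0494), and 5.06% of genes were called. Between Kdm1a KD and Cbfa2t3 KD, Cpox was called, at a log2 of −2.18 ± 0.37 (adjusted p = 0.00209), against 5.42% of genes. The single Kdm1a control adds no spread of its own to this fit and is assumed to vary like the other groups. Alas2, Alad and Ppox joined it when the Gfi1b table was left out, at log2 differences of −2.0, −1.13 and −1.21, against 12.7% of genes.

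Between induction and Irf2bp2 KD, 1 of the 7 enzymes was called in the joint fit, where 22.3% of genes were. This was Cpox, at a log2 of −1.34 ± 0.35 (adjusted p = 0.0136), while Alas2 at 2.20 ± 1.16 and Alad at 1.99 ± 0.75 had larger differences that were not called (adjusted p = 0.18 and 0.0651). The Cpox difference was −1.39 with the Gfi1b table left out, where 34.7% of genes were called. It lost its call in the joint fit when any 1 of 4 libraries was left out (adjusted p of 0.0522 to 0.0693), namely Irf2bp2 WT replicate 1, Irf2bp2 KD replicate 2, non-induced replicate 2 and induced replicate 2. With the Gfi1b table left out, Alas2, Alad and Fech rose more on induction than on Irf2bp2 KD, by a log2 of 2.14, 1.93 and 0.75. Induced cells were taken later after treatment than the hairpin KD cells, and the part of time in these differences was not tested. Between Gfi1b KD and Cbfa2t3 KD no enzyme was called, where 2.46% of genes were. An unadjusted edgeR p under 0.05 was found for 4 of the 7 and for 2863 of all 14176 genes. DESeq2 called none of the 7. Without the library labelled Gfi1b KD replicate 1, the difference turned from a log2 of 3.39 to −1.17 for Alas2, and Uros was called at −1.64 (adjusted p = 0.0323), where 3.9% of genes were called.

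**Figure D4:**
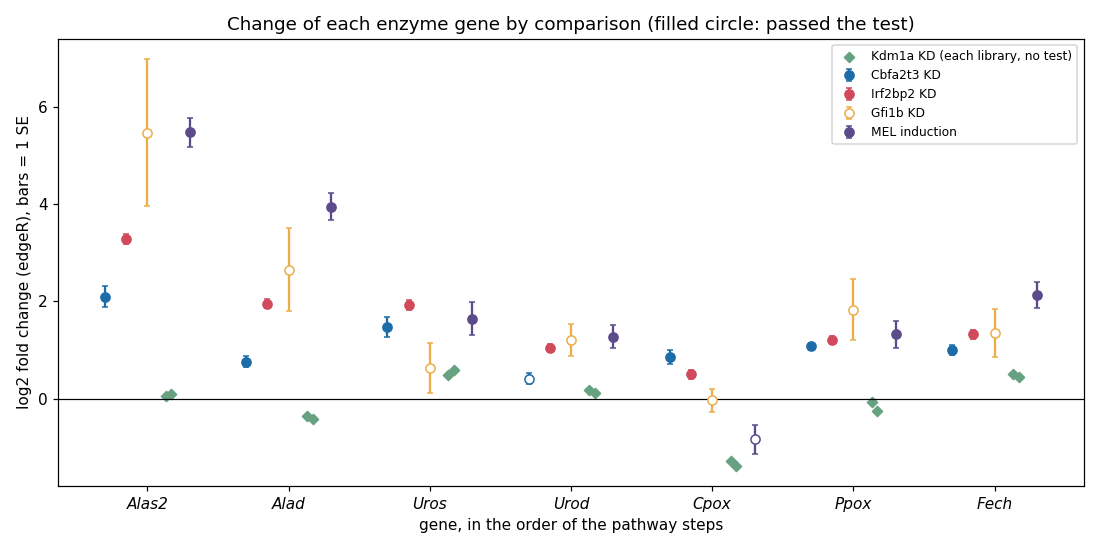
Log2 fold change of each enzyme gene in each comparison, in pathway order. Circles with bars of 1 SE are edgeR estimates, filled where the gene passed the test, and diamonds are the 2 Kdm1a KD libraries, each against the 1 control; Alas2 has the largest change in the Cbfa2t3 KD, Irf2bp2 KD and induction comparisons, and of the 7 genes Cpox alone lies below 0 on induction and is lowest in Kdm1a KD.

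How the genes moved together was described over the 12 KD and induced libraries, each taken as its log2 difference from the mean of its own controls after scaling all 21 libraries together, so that values differ slightly from those above; libraries of a table share those controls. Alas2 and Alad ran closely together (Pearson r = 0.98), and Alas2 with Fech at 0.95, with Urod at 0.93 and with Ppox at 0.85. Uros followed less closely, at r = 0.55 with Alas2. Cpox stood apart, at r = 0.03 with Alas2 and between −0.07 and 0.42 with the other 5. Without the library labelled Gfi1b KD replicate 1, r with Alas2 was 0.99 for Alad, 0.96 for Fech, 0.90 for Urod, 0.77 for Ppox, 0.68 for Uros and 0.07 for Cpox, and that of Cpox with Ppox was 0.60. In the libraries themselves, Cpox was higher than its controls in all 6 Cbfa2t3 and Irf2bp2 KD libraries, by a log2 of 0.41 to 1.09, while Alas2 was higher by 1.60 to 3.36. In the 2 induced libraries Alas2 was higher by 5.38 and 5.58 and Cpox lower, at −1.10 and −0.49, and in the 2 Kdm1a KD libraries Alas2 was at 0.07 and 0.11 with Cpox at −1.27 and −1.36. Among the 14169 genes that are not members, those most like Alas2 were Hbq1a, a globin gene (r = 0.993), BC021767 (r = 0.991) and Cgn, which encodes the junction protein cingulin (r = 0.990). Those most like the mean of the 7 were Smox, spermine oxidase (r = 0.994), Dnaja4, a co-chaperone (r = 0.994), and Klhdc10 (r = 0.992). Without the library labelled Gfi1b KD replicate 1, Dnaja4 (r = 0.994) and Smox (r = 0.993) were again among the closest 3 to that mean, whereas none of the 3 genes named for Alas2 was among its closest 3.

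**Figure D5:**
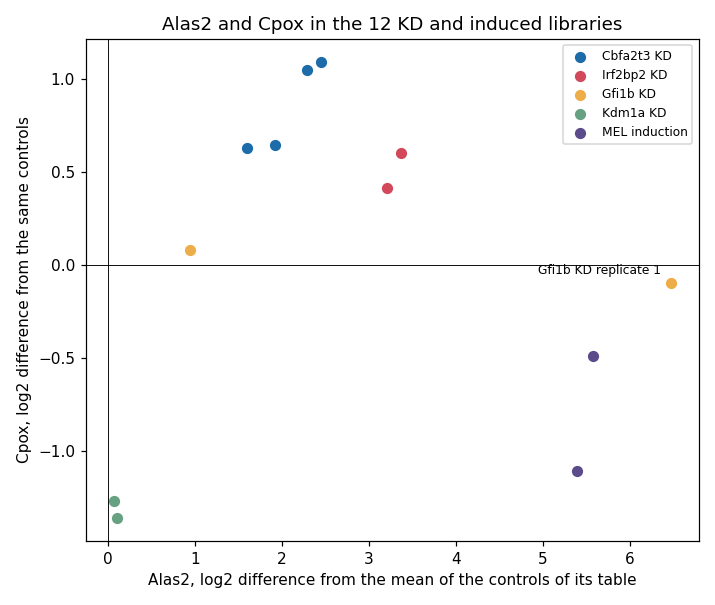
Log2 difference of Cpox against that of Alas2, each from the mean of the controls of the same table, in the 12 KD and induced libraries (1 point each, coloured by table). Cbfa2t3 and Irf2bp2 KD libraries lie at the upper middle with both genes higher, induced libraries at the lower right with Alas2 higher by 5.38 and 5.58 and Cpox lower, and Kdm1a KD libraries at the lower left.

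The enzymes were set beside 27 other genes of iron supply, porphyrin transport, haem sensing, haem breakdown and iron storage, of which 26 were tested in each table. Of these, 5 rose and none fell in Cbfa2t3 KD, 11 rose and 2 fell in Irf2bp2 KD, and 11 rose and 3 fell on induction, while in Kdm1a KD 2 were past the limit upwards and 6 downwards. Over all genes, 2.99% were called higher and 2.75% lower in Cbfa2t3 KD, 10.1% and 12.5% in Irf2bp2 KD, and 12.4% and 14.8% on induction. In Kdm1a KD, with its 1 control library, 13.1% of all genes were past the limit upwards and 9.8% downwards. The 6 of 26 downwards were a larger share than this, and the 2 of 26 upwards a smaller one. Of the 6, 5 were among the list's 10 genes of glycine and iron supply. No gene of the list was called in the Gfi1b table, and none without the library labelled Gfi1b KD replicate 1, whereas without replicate 2, 11 were called higher and 5 lower, against 26.7% of all genes. The median log2 fold change of the list was 0.19, 0.43 and 0.31 in the first 3 comparisons, against 1.01, 1.33 and 1.65 for the 7 enzymes and 0.00, −0.01 and −0.02 over all genes. Those that rose in Cbfa2t3 KD, Irf2bp2 KD and induction alike were Slc25a37 (log2 0.99, 1.36 and 1.12), the mitochondrial iron importer mitoferrin 1, its partner Abcb10 (0.90, 1.67 and 2.63), Tmem14c (0.89, 0.94 and 1.65), which is needed for porphyrinogen to enter the mitochondrion, the porphyrin exporter Abcg2 (1.90, 1.63 and 3.35) and Blvrb (0.65, 0.78 and 0.95), a biliverdin reductase.

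A second set rose in Irf2bp2 KD and on induction. It held the glutaredoxin Glrx5 of iron-sulphur cluster assembly (log2 0.79 and 1.51), the transporter Abcb6 (0.81 and 1.59) and Eif2ak1 (0.81 and 1.77), the haem-regulated kinase that restrains translation when haem is short. In Cbfa2t3 KD these 3 stood at 0.41, 0.34 and 0.34, below the fold limit. The haem-degrading oxygenase Hmox1 went the other way, by a log2 of −2.54 in Irf2bp2 KD, from 36.3 and 39.2 CPM to 6.63 and 6.40 CPM. On induction it went from 52.4 and 19.3 CPM to 13.3 and 10.6 CPM (log2 −1.59), and without non-induced replicate 1 this was −0.70 and no longer called (adjusted p = 0.252). In Kdm1a KD Hmox1 was higher in both libraries, from 31.8 CPM to 141 and 146 CPM. It was 1 of the 2 genes of the list past the limit upwards there, against 6 downwards. Alas1, the housekeeping form of the synthase, was called in none of the 4 replicated comparisons. Erythroid markers rose in the same 3 comparisons, with 4 of 6 listed genes called higher in Cbfa2t3 KD, 6 in Irf2bp2 KD and 5 on induction, against 2.99%, 10.1% and 12.4% of all genes. Their summed level was 1158 to 1179 CPM in the controls against 1559 to 1692 CPM in Cbfa2t3 KD, 972 to 1059 against 1941 to 2013 CPM in Irf2bp2 KD, and 847 to 1075 against 2696 to 2770 CPM on induction. Megakaryocyte markers were called higher in 1, 4 and 1 of 4, against the same shares of all genes, and their sum was 399.7 to 412 against 474 to 587 CPM, 365 to 416 against 776 to 807 CPM, and 376 to 518 against 1158 to 1288 CPM. These sums consist almost wholly of Pf4 and Itga2b. In Kdm1a KD the erythroid sum was 1143 CPM in the control and 866 and 867 CPM in the KD libraries. In the Gfi1b table the KD libraries differed from each other in both sums, with 1042 and 2024 CPM against 955 to 1046 CPM in the controls for the erythroid list, and 173 and 884 CPM against 221 to 285 CPM for the megakaryocyte list. The part of either list in the changes of the enzymes was not tested, and a share of more mature cells and more RNA per cell cannot be told apart in these bulk samples.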

How the data were processed

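MEL cells were transduced with hairpins or transfected with siRNA, and poly(A) RNA was sequenced. The authors aligned reads to mm9 with TopHat2 and deposited raw counts per RefSeq gene and RPKM (counts per length and depth). Strand use was not given in the sources used here: Alas2 exons overlap those of Apex2, and Ppox exons those of B4galt3, both on the opposite strand. The authors' fold change and p columns of their own comparisons were not used. The deposited site list gives a fold ratio over IgG, an adjusted p-value and a class code (0, 1 or 2) per site, mapped with Bowtie and kept where at least 2 of 3 peak callers found it; the ETO2-only and shared classes were read from set sizes stated in the methods (1760 and 2730 sites), and the remaining 8739 sites were taken as IRF2BP2-only. A further 4 read-number columns could not be tied to a sample.

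Counts were fitted here with edgeR 4.0.16 (R 4.3.3; TMM, filterByExpr, quasi-likelihood test, Benjamini-Hochberg over all genes tested), checked on simulated data. Kdm1a KD used log2 CPM with a prior count of 2. Alternatives were DESeq2 1.42.0, its size factors, other filters, a replicate block and leaving out libraries. Levels used the authors' RPKM. Gene positions came from GENCODE vM1 (mm9). Named genes were the 7 enzymes, the KD targets, haem-linked genes called in 2 or more of the 4 replicated comparisons, and the 3 genes most like Alas2 and like the mean of the 7 over the 12 libraries; Alas1 and the cell type markers were named outside this rule, after their values were seen. Members, lists and tests were chosen with earlier results of these data known. One or more genes of the pathway are not reported here.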

Additional observations from a re-analysis of the deposited data

Results flagged for a closer look

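Differences between hairpins or comparisons were called for 3 genes. Alas2 and Uros rose more with Cbfa2t3 hairpin sh3 than with sh2, by a log2 of 0.61 and 0.55, and lay higher in both sh3 libraries than in both sh2 libraries, where 3.71% of genes were called. Cpox changed by a log2 of −2.18 in Kdm1a KD relative to Cbfa2t3 KD, where 5.42% of genes were called and the Kdm1a arm has 1 control library. On induction relative to Irf2bp2 KD it changed by −1.34, where 22.3% of genes were called, and this call was lost when any 1 of 4 libraries was left out (edgeR adjusted p of 0.0522 to 0.0693). With the Gfi1b table left out further enzymes were called in the last 2 contrasts, as given above.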

How the results depend on the processing

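The number of enzymes called was recomputed under each alternative. With no filter on low counts 5 were called in Gfi1b KD instead of 0 (2.41% of genes), edgeR with 1 control called 2 in Kdm1a KD (Cpox lower, Uros higher, against 22.5% of all genes), and with the Gfi1b table left out the counts became 3 (Irf2bp2 KD minus Cbfa2t3 KD), 4 (Kdm1a KD minus Cbfa2t3 KD) and 4 (induction minus Irf2bp2 KD). On induction 7 were called instead of 6, Cpox being added as lower, with DESeq2 (19.8% of genes), with no filter (21.7%) and with at least 10 counts in every library (28.5%). Leaving out 1 library at a time gave 4 to 6 in Cbfa2t3 KD (2.19% to 6.39% of genes), 6 to 7 in Irf2bp2 KD (20.2% to 24%), 5 to 7 on induction (12.5% to 27.8%), 0 to 6 in Gfi1b KD (0% to 26.7%), 2 in both cases in Kdm1a KD (28.1% and 28.5%), 0 to 5 for Gfi1b KD minus Cbfa2t3 KD (0.438% to 21.7%), and 0 to 1 for induction minus Irf2bp2 KD (12.1% to 28.3%). Signs turned only when a library was left out. The ranges were −0.27 to 0.24 for Cpox and −0.16 to 1.12 for Uros in Gfi1b KD, with Cpox at 0.07 and Uros at −0.16 without the library labelled Gfi1b KD replicate 1. For Gfi1b KD minus Cbfa2t3 KD they were −1.17 to 4.32 for Alas2, −0.45 to 2.70 for Alad, −0.18 to 1.74 for Ppox and −0.77 to 0.92 for Fech, the lowest values again without that library. For induction minus Irf2bp2 KD the range of Ppox was −0.19 to 0.52. The log2 fold change of Cpox on induction ran from −1.22 to −0.33 and became called without non-induced replicate 1 or induced replicate 1. The cause of these changes was not tested.

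Replicate numbers were taken as names only, since each comparison has 2 of them and same-numbered libraries deviated together at r of 0.02 to 0.16. With a replicate block the counts were 6, 7, 0 and 7 for Cbfa2t3 KD, Irf2bp2 KD, Gfi1b KD and induction, where Cpox was called at −0.80 and the share of all genes called went from 27.2% to 33.4%; in the other 3 that share was 5.04%, 23% and 0%. The order of the enzymes by RPKM kept 5 of 6 neighbouring pairs in the non-induced libraries alone or by median, and 7 of 7 genes kept an assigned site within 100 kb. Uros had the fewest counts of the 7, and its standard error was 0.34 and 0.51 in the shallower induction and Gfi1b tables against 0.11 and 0.20 in the deeper Irf2bp2 and Cbfa2t3 tables.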
